A study of Mus musculus with 6 samples.

Results

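Blood vessels enter the mouse gonad while its sex is being decided, and their cells can be followed in whole-ovary RNA by genes that endothelium uses. 10 such genes were chosen by symbol: Pecam1, Cdh5 and Emcn (surface and junction proteins), Kdr and Flt1 (receptors for vascular endothelial growth factor, VEGF), Tek and Tie1 (the Tie receptors), Eng (a coreceptor of the TGF beta family), and Sox18 and Erg (transcription factors). All 10 were found among the 48709 genes of the count table. Wild-type CD1 females received by gavage, from 10.5 to 13.5 days post coitum (dpc), either ethanol or acetaminophen (APAP, 30 mg/kg per day) together with ibuprofen (IBU, 15 mg/kg per day), the drugs alternating every 3 h over 4 gavages a day. The ovaries of their embryos were collected at 13.5 dpc, and polyadenylated RNA from 3 control and 3 APAP+IBU pools was sequenced as 6 libraries. Each library was a pool of gonads from a pair of pregnant females, so the spread between libraries is a spread between pools and not between single embryos. The exposure label of the exposed samples names both drugs, while their titles name Ibu alone.

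Endothelial cells line vessels and hold to each other through junctions in which VE-cadherin (the product of Cdh5) and PECAM1 take part. Their growth is driven by VEGF acting on KDR, while FLT1 binds the same ligand tightly and limits its action. Angiopoietins acting on TEK, with TIE1 as its partner, steady the vessel wall, and ETS factors such as ERG and SOX factors such as SOX18 switch on endothelial genes.

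Total counts per library ran from 37811968 to 48954631, and the counts of a single member in a single library ran from 212 (Sox18) to 7068 (Kdr). Levels are given as CPM (counts scaled to library size) after TMM normalisation, a scaling that sets libraries to a common level from the bulk of their genes. Replicate 3 of both groups stood apart. The 10 hepatocyte markers summed to 242 and 521 CPM in control replicates 1 and 2 and to 1881 CPM in control replicate 3, and to 171, 364 and 3049 CPM in APAP+IBU replicates 1, 2 and 3. Markers of the ovary's own cells were measured in every library, with sums of 560 to 925 CPM over 8 pregranulosa markers and of 1249 to 1640 CPM over 8 germ cell markers, although Foxl2 itself was low, at 0.944 to 8.16 CPM. All 10 endothelial genes passed edgeR's filter on low counts.

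No endothelial gene passed the test for a difference between exposed and control ovaries. Their fitted levels in exposed ovaries were 0.793 (Pecam1) to 1.01 (Cdh5) times those of controls. In edgeR's quasi-likelihood test over all 6 libraries, 0 of the 10 had an adjusted p under 0.05, against 0 of 20167 genes tested (0%), and 0 of the 10 had an unadjusted p under 0.05, against 1254 genes (6.22%). DESeq2 called 0 of the 10 as well, with 192 calls among all genes (0.952%). The log2 fold change (APAP+IBU over control) was negative for 9 of the 10, where 50.6% of all tested genes were negative, and the median was -0.21, beside -0.0047 over all genes. The median over all tested genes depended on the GC content of the transcripts. It went from 0.21 in the lowest of 5 equal classes of GC content to -0.15 in the highest. Cdh5 was the one with a positive value, and it turned negative, at -0.0074, with upper quartile scaling. The members share their libraries, so their signs are not independent of each other. Flt1 and Tek, 2 of the 10, had each of their exposed libraries below each of their controls, as 5.92% of tested genes had. This rested on the scaling, since with upper quartile scaling Flt1 alone was separated and with total counts neither was. Added up, the 10 levels came to 554, 558 and 592 CPM in the control pools and to 519, 465 and 526 CPM in the exposed pools, and each exposed library was below each control. With total counts the lowest control sum was 537 and the highest exposed sum 538. The mean log2 CPM over the members, which weights each gene equally, was 5.32, 5.30 and 5.23 in the control pools and 5.16, 4.98 and 5.19 in the exposed pools, lowest in APAP+IBU replicate 2. In RNA of a whole organ, differences in endothelial cell number, in RNA per endothelial cell and in RNA from other cells cannot be told apart.

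**Figure D1:**
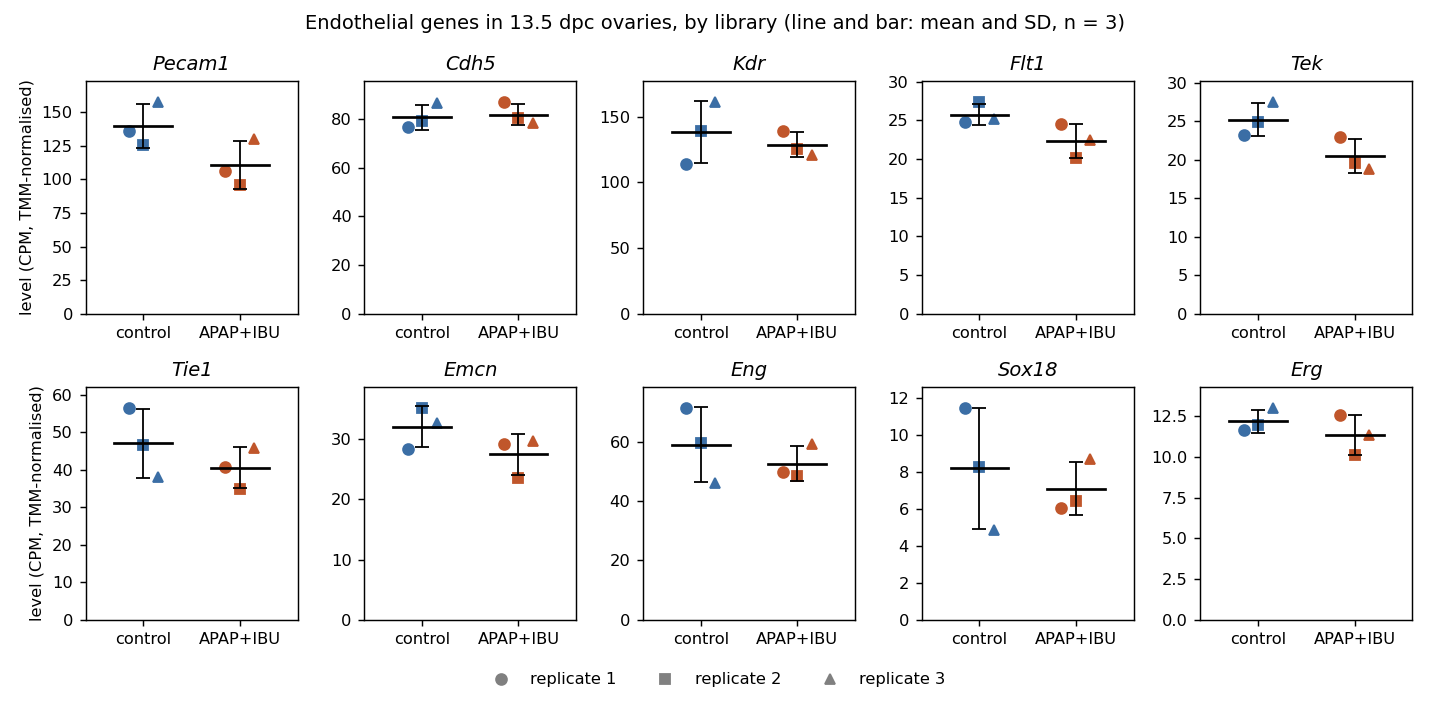
Level of each of the 10 endothelial genes in the 6 libraries (vertical axes, CPM after TMM normalisation, each starting at 0), with a point shape for each replicate number and the mean and SD of the 3 libraries of a group. Flt1 and Tek have no exposed library above a control library, Cdh5 has the same level in both groups within its spread, and in Tie1, Eng and Sox18 control replicate 1 is the highest and control replicate 3 the lowest of the controls.

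Of the surface and junction genes, Pecam1 (ENSMUSG00000020717) lies on the minus strand of chromosome 11 from 106654217 to 106750628 (GRCm38, as for all positions here) and encodes an adhesion molecule of endothelial junctions. It was at 136, 126 and 157 CPM in control replicates 1, 2 and 3 and at 107, 95.7 and 130.3 CPM in the exposed ones. Only APAP+IBU replicate 3 reached into the control range, passing control replicate 2. The log2 fold change was -0.33 with a standard error of 0.15 (95% interval -0.69 to 0.02, edgeR adjusted p = 0.692), the most negative of the members. PECAM1 is also found on fetal germ cells, leukocytes and platelets. The 10 macrophage and leukocyte markers summed to 105 to 119 CPM in controls and 79.6 to 111 CPM in exposed libraries, the 6 megakaryocyte markers to 19.7 to 29.0 and 11.5 to 28.6 CPM, and the 8 germ cell markers to 1319 to 1430 and 1249 to 1640 CPM. No marker of these lists was at 0 in any library, and their part in the Pecam1 values was not tested.

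Cdh5 (ENSMUSG00000031871, chromosome 8, plus strand, 104101625 to 104144511) encodes VE-cadherin, which among the members is the one most closely tied to endothelial junctions. It was at 76.6, 79.1 and 86.6 CPM in controls and at 86.9, 80.2 and 78.5 CPM in exposed libraries. The groups overlapped almost fully. The fold was 1.01 with a 95% interval of 0.846 to 1.22 (log2 fold change 0.02, standard error 0.11, edgeR adjusted p = 0.956). The antisense gene Gm29682 overlaps Cdh5 and had 0 to 5 counts per library. The per-length ratio of Pecam1 to Cdh5 was 1.20, 1.07 and 1.23 in controls and 0.827, 0.805 and 1.12 in the exposed pools. The groups overlapped, since APAP+IBU replicate 3 was above control replicate 2.

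Emcn (ENSMUSG00000054690, chromosome 3, plus strand, 137341067 to 137432185) encodes endomucin, a mucin of venous and capillary endothelium. It was at 28.4, 35.1 and 32.8 CPM in controls and at 29.1, 23.6 and 29.8 CPM in exposed libraries. APAP+IBU replicate 2 was the lowest library and control replicate 2 the highest, and control replicate 1 lay below exposed replicates 1 and 3. Its log2 fold change was -0.22 (standard error 0.16, edgeR adjusted p = 0.699).

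The VEGF receptors differed from each other more in level than between groups. Kdr (ENSMUSG00000062960, chromosome 5, minus strand, 75932827 to 75978458), the main signalling receptor, was at 114, 139 and 161 CPM in controls and at 139, 126 and 121 CPM in exposed libraries. The exposed values fell inside the range of the controls, whose own replicates 1 and 3 were the lowest and the highest of all 6 libraries. It gave a log2 fold change of -0.10 (standard error 0.15, edgeR adjusted p = 0.820). Flt1 (ENSMUSG00000029648, chromosome 5, minus strand, 147561604 to 147726011), the decoy-like receptor, was at 24.8, 27.3 and 25.1 CPM in controls and at 24.5, 20.1 and 22.4 CPM in exposed libraries. The groups did not overlap, but the gap between control replicate 1 and APAP+IBU replicate 1 was small beside the spread within either group. Its log2 fold change was -0.20 (standard error 0.14, edgeR adjusted p = 0.699). Levels per length here are per kilobase of merged exons, all annotated exons of a gene with overlaps counted once. By this measure Kdr exceeded Flt1 by 6.90, 7.61 and 9.59 times in controls and by 8.51, 9.35 and 8.08 times in exposed libraries, ranges that overlapped.

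The promoters of the pair of members whose groups did not overlap, Flt1 and Tek, are shown with that of Eng, a member whose transcripts are rich in GC. Each is the 250 bases before the start site in RefSeq on GRCm38.p6, written 5′ to 3′ on the gene's strand. Matches to AGGAAG, a single form of the ETS site, or to its reverse complement CTTCCT are in capitals. Other forms were not searched, so a window with 0 matches can still hold an ETS site. The windows are Flt1 chr5:147726012-147726261 (minus strand), Tek chr4:94739039-94739288 (plus strand) and Eng chr2:32646345-32646594 (plus strand).
Flt1: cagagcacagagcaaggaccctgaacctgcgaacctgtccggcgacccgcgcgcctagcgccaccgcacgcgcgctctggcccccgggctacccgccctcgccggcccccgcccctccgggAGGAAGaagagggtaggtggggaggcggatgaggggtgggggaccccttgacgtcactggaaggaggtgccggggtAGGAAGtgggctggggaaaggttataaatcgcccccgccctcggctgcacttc
Tek: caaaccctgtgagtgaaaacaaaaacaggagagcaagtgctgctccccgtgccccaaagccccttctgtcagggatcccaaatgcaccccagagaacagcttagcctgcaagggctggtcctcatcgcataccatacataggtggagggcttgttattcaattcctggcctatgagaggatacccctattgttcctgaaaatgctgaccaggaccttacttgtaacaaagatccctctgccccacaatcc
Eng: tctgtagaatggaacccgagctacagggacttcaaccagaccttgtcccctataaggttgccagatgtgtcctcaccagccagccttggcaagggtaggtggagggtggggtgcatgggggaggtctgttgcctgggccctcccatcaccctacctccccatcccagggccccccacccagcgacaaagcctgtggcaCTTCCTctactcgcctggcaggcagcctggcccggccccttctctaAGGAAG
The Flt1 window held 2 ETS matches and had a GC content of 70.4%, the Tek window held 0 and had 51.2%, and the Eng window held 2 and had 62.4%. Of 32851 promoter windows of this length, 29.5% held at least 1 match on either strand. RefSeq windows were found for 7 of the 10 members. Tie1 and Emcn held 1 and 2 matches, Kdr held 0, and 1 of the 3 windows of Erg held 1.

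Tek (ENSMUSG00000006386, chromosome 4, plus strand, 94739289 to 94874976) encodes the angiopoietin receptor. It was at 23.2, 25.0 and 27.5 CPM in controls and at 23.0, 19.6 and 18.8 CPM in exposed libraries. Each exposed library was below each control, by the narrowest of margins between replicate 1 of each group. This gave a log2 fold change of -0.30 with a standard error of 0.15 (95% interval -0.65 to 0.05, edgeR adjusted p = 0.692). Tie1 (ENSMUSG00000033191, chromosome 4, minus strand, 118471191 to 118490061), its orphan partner, was at 56.4, 46.5 and 38.1 CPM in controls and at 40.8, 35.0 and 45.9 CPM in exposed libraries. The controls spanned a wider range than the exposed libraries did, and the groups overlapped. Its log2 fold change was -0.21 (standard error 0.18, edgeR adjusted p = 0.720). The per-length ratio of Tek to Tie1 ran from 0.429 to 0.752 in controls and from 0.427 to 0.588 in exposed libraries.

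Eng (ENSMUSG00000026814, chromosome 2, plus strand, 32646595 to 32682669) encodes endoglin, which presents BMP9 and BMP10 to the receptor ALK1. It was at 71.2, 59.6 and 46.2 CPM in controls and at 49.6, 48.6 and 59.3 CPM in exposed libraries. Control replicate 1 was the highest and control replicate 3 the lowest of all 6 libraries, so the exposed values lay within the controls. Its log2 fold change was -0.17 (standard error 0.18, edgeR adjusted p = 0.764). The last bases of Eng overlap Fpgs on the opposite strand, which had 1183 to 1590 counts per library, and the strand setting of the counting is not given in the sources used here.

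Sox18 (ENSMUSG00000046470, chromosome 2, minus strand, 181669836 to 181671640) encodes a SOX factor of early arterial and lymphatic endothelium. It was at 11.4, 8.25 and 4.88 CPM in controls and at 6.07, 6.44 and 8.72 CPM in exposed libraries. The controls alone held both the highest and the lowest of all 6 libraries. The log2 fold change was -0.21 with a standard error of 0.32, the widest of the members (95% interval -0.95 to 0.53, edgeR adjusted p = 0.825). Erg (ENSMUSG00000040732, chromosome 16, minus strand, 95359169 to 95586593), an ETS factor that maintains endothelial identity, was at 11.6, 12.0 and 13.0 CPM in controls and at 12.6, 10.1 and 11.4 CPM in exposed libraries. The groups overlapped, and the log2 fold change was -0.10 (standard error 0.17, edgeR adjusted p = 0.837).

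Per kilobase of merged exons (RPKM), the members ranged over more than a 10-fold span. Control means with SD over 3 pools were 22.4 ± 2.60 for Pecam1, 19.2 ± 1.23 for Cdh5, 15.3 ± 2.59 for Kdr, 14.6 ± 3.10 for Eng, 9.56 ± 1.86 for Tie1, 5.94 ± 0.631 for Emcn, 5.35 ± 0.460 for Tek, 5.05 ± 2.02 for Sox18, 3.52 ± 0.203 for Erg and 1.91 ± 0.104 for Flt1. In this order Cdh5 and Kdr, Tie1 and Emcn, and Erg and Flt1 were neighbours whose 6 libraries did not overlap, while the other neighbours overlapped. Pecam1 was thus at the 85.4th percentile of tested genes by level per length and Flt1 at the 37.6th.

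How much a member varied between pools of one group differed with the GC content of its transcripts. Between control replicates 1 and 3, the log2 CPM of Sox18 (60.9% GC) differed by 1.22, that of Eng (57.6%) by 0.63 and that of Tie1 (57.8%) by 0.56, all higher in replicate 1. The other 7, with 42.2 to 52.5% GC, differed by -0.49 (Kdr) to -0.02 (Flt1). All tested genes showed the same order, with a median difference of -0.49 in the lowest of 5 equal classes of GC content and of 0.65 in the highest. The members lay 1, 1, 3, 2 and 3 to a class, from low to high. The median log2 fold change of APAP+IBU over control in these classes was 0.21, 0.05, -0.016, -0.076 and -0.15, in the same order. With a correction of every library for length and GC content, the within-group SD of log2 CPM went from 0.48 to 0.091 for Sox18, from 0.25 to 0.063 for Eng, from 0.24 to 0.12 for Tie1 and from 0.19 to 0.084 for Kdr. It was smaller after the correction for 6 of the 10 and larger for Emcn, Flt1, Erg and Cdh5, while the median over all genes went from 0.289 to 0.223.

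**Figure D2:**
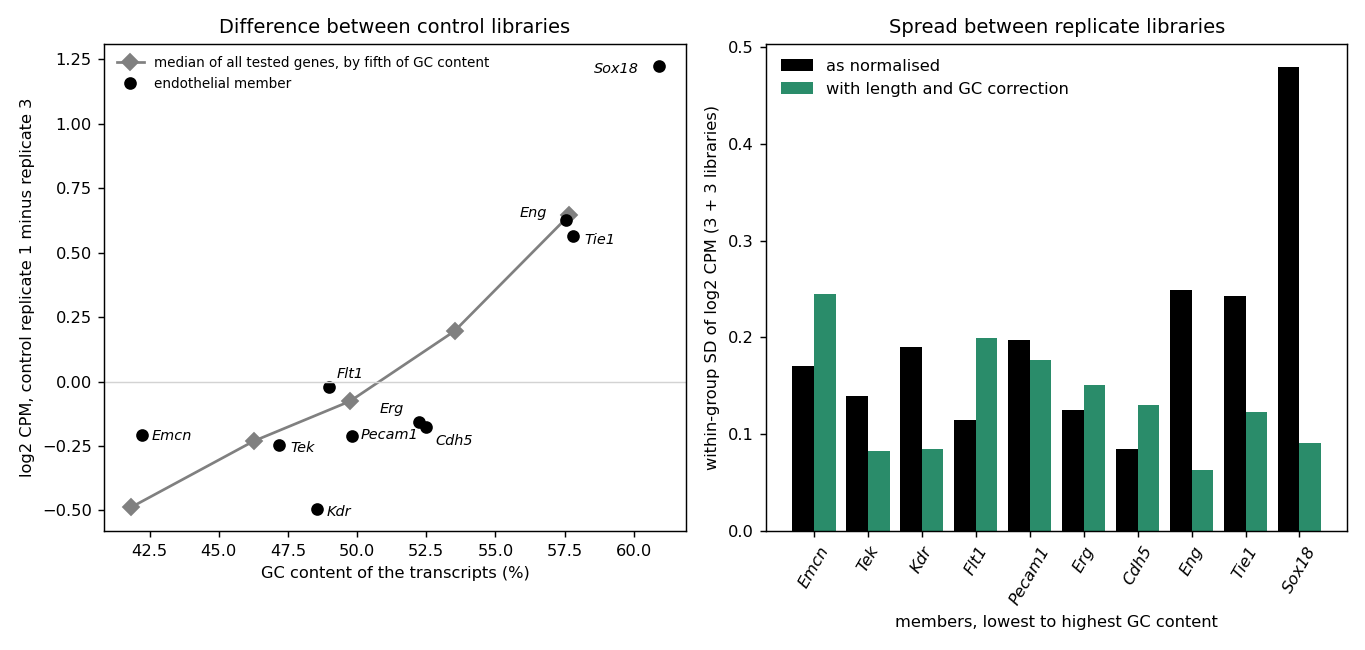
Left, difference in log2 CPM between control replicates 1 and 3 (vertical axis) against the GC content of the transcripts in percent (horizontal axis) for the 10 members and for the median of all tested genes in each of 5 classes of GC content. Right, SD of log2 CPM within groups for each member, ordered by GC content, without and with the correction. Sox18, Eng and Tie1, the members with the most GC, lie above 0.5 on the left and have shorter bars with the correction on the right.

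With the length and GC correction, the test still called no member (smallest edgeR adjusted p = 0.499). Pecam1 at -0.36, Flt1 at -0.35, Tek at -0.35 and Emcn at -0.47 then had an unadjusted edgeR p under 0.05, 4 of the 10, where 5.18% of tested genes were that low and lower in exposed ovaries. The unadjusted p was 0.0212 for Pecam1, 0.0458 for Flt1, 0.0132 for Tek and 0.0230 for Emcn. In corrected log2 CPM, APAP+IBU replicate 3 exceeded control replicate 3 for Flt1 (4.52 against 4.49) and Emcn (4.91 against 4.86). For Pecam1 it exceeded control replicate 2 (7.015 against 7.012), and Tek alone of these 4 had groups that did not overlap. Eng moved to -0.055, Tie1 to -0.12, and Sox18 changed sign to 0.12, so the median of the members was -0.15. With the replicate number as a block beside the correction, the unadjusted edgeR p of Flt1 was 0.0653, and 3 members stayed under 0.05. Without replicate 3 of either group, edgeR called 5607 of 20633 genes, with 12.9% of the tested genes called lower. Among the members it called Pecam1 (log2 fold change -0.35, adjusted p = 0.0404) and Eng (-0.39, adjusted p = 0.0409) as lower, 2 of the 10. With both changes together the called members were Pecam1 (-0.45), Flt1 (-0.52) and Emcn (-0.72), 3 of the 10, all lower, where 7.54% of the tested genes were called lower. Eng was no longer among them. Pecam1 was the one member called in both of these fits, and Cdh5 in neither.

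**Figure D3:**
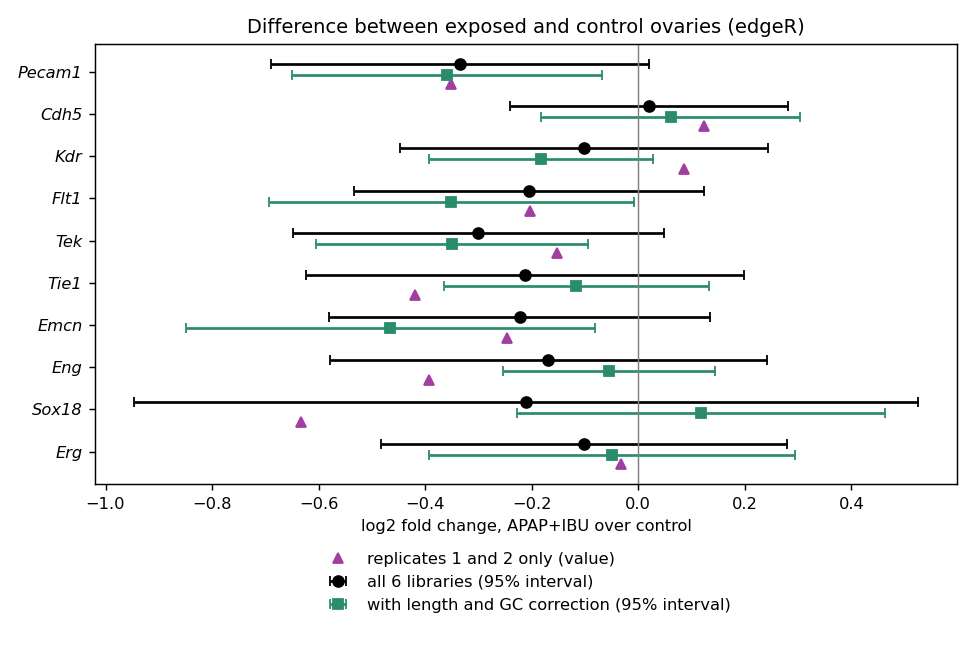
Log2 fold change of APAP+IBU over control ovaries for each member (horizontal axis) over all 6 libraries and with the length and GC correction, with 95% intervals, and the value with replicates 1 and 2 only. Every interval over all 6 libraries includes 0, the corrected intervals of Pecam1, Flt1, Tek and Emcn end below 0, and Sox18 has the widest interval.

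The pathways around the members were read from fixed lists of 88 vascular genes, of which 87 were tested and 78 were not members. 0 of the 87 passed the test (smallest edgeR adjusted p = 0.554, Gja5). The log2 fold change was negative for 70 (80.5%), against 50.6% of all tested genes. The 87 include the members and share their libraries, so these values are not independent of each other or of those of the members. The lists were also chosen with earlier results of these data known. All exposed libraries lay below all controls for 10 (11.5%), against 5.92% of all tested genes, and above them for 1, against 4.78%. An unadjusted edgeR p under 0.05 was found for 7 genes (8.05%, against 6.22% of all tested genes), all lower in exposed ovaries. The median log2 fold change was -0.17, and -0.11 with the length and GC correction. DESeq2 called Gja5 alone of these genes. With replicates 1 and 2 of each group alone, 25 of the 87 were called lower, where 12.9% of all tested genes were, and 5 higher, where 14.2% were. These were 30 calls in either direction, where 27.2% of all tested genes were called. With the length and GC correction on those libraries the calls in either direction fell to 13 of the 87, where 13.2% of all tested genes were called. These 13 were not split by direction, and 7.54% of all tested genes were called lower in that fit. The members among the 13 were Pecam1, Flt1 and Emcn, all lower. Without control replicate 3 edgeR called 2, Foxc2 and Rasip1, where it called 5.16% of all tested genes.

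Among the VEGF ligands, Vegfa, the main ligand of KDR and FLT1, was the vascular gene whose exposed libraries all lay above the controls, at 83.9, 92.5 and 94.2 CPM in controls and at 132, 105 and 94.8 CPM in exposed libraries (log2 fold change 0.29, standard error 0.15, edgeR adjusted p = 0.692). APAP+IBU replicate 3 exceeded the highest control by less than 1 CPM, and with upper quartile scaling or total counts the groups overlapped. The ligands of lymphatic growth had lower values in exposed ovaries. Vegfc was at 7.55, 8.19 and 8.82 CPM in controls and at 6.78, 5.20 and 4.82 CPM in exposed libraries (-0.55, edgeR adjusted p = 0.692), and Vegfd at 11.9, 12.2 and 11.9 against 8.71, 6.59 and 8.62 CPM (-0.59, edgeR adjusted p = 0.692). Neither gene's groups overlapped. Vegfb, at -0.43 (-0.11 with the length and GC correction), and Pgf, at -0.22 (-0.07 with it), had overlapping groups. So did the coreceptors Nrp1 (-0.10) and Nrp2 (-0.17) and the VEGFC receptor Flt4 (-0.11).

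Of the ligands of TEK, Angpt1, which activates it, was at 5.52 to 9.12 CPM in controls and 4.72 to 7.22 CPM in exposed libraries (log2 fold change -0.21). The context-dependent antagonist Angpt2 was at 3.04 to 5.84 and 1.95 to 3.21 CPM (-0.51), and Angpt4 was near 1 CPM (-0.44). Ptprb, the phosphatase that acts on TEK, had 0.08. None of the 6 genes of this list was called, and Tek was the one with groups that did not overlap. Around endoglin, the receptor gene Acvrl1 (ALK1) was at 18.5 to 28.0 CPM in controls and 20.6 to 21.05 CPM in exposed libraries (-0.24). Its ligands were scarce, with Gdf2 (BMP9) at 0.0787 to 1.68 and 0.0789 to 2.26 CPM and Bmp10 at 0 to 14 counts, too few to be tested. BMP9 is known as a product of the liver and BMP10 of the heart, and Gdf2 was highest in replicate 3 of each group, as the hepatocyte markers were. The part of liver RNA in it was not tested. Tgfb1 (-0.56) and Id1 (-0.51), a BMP target, had the largest differences of that list, with overlapping groups. With the length and GC correction they were at -0.47 and -0.18.

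Of the 24 endothelial surface and junction genes, 3 of which are members, 19 had a negative log2 fold change and none was called. The tight junction gene Cldn5 was at 28.5, 19.3 and 10.1 CPM in controls and 12.1, 10.4 and 15.7 CPM in exposed libraries (-0.60), the diaphragm gene Plvap at 33.9, 27.8 and 15.6 against 13.9, 15.6 and 22.5 CPM (-0.57), and Rasip1, a regulator of the vascular lumen, had -0.60. In all 3, control replicate 1 was the highest library, and the groups overlapped. With the length and GC correction Cldn5 was at -0.22, Plvap at -0.31 and Rasip1 at -0.37. Vwf, the clotting factor that endothelium stores, and Aplnr, the apelin receptor, did not overlap, at -0.48 and -0.29. With the correction they were at -0.57 and -0.27. Aplnr was at 88.1, 90.5 and 87.8 CPM in controls and 74.1, 70.0 and 73.4 CPM in exposed libraries.

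The 18 transcription factors, Sox18 and Erg among them, had 15 negative values and a median of -0.09, and none was called. Sox7 (-0.06), Sox17 (0.14) and Fli1 (0.03), relatives of Sox18 and Erg, all had overlapping groups. Foxc2, a forkhead factor of lymphatic valves, was at 4.49, 4.61 and 2.42 CPM in controls and 2.19, 1.62 and 2.26 CPM in exposed libraries (-0.92, edgeR adjusted p = 0.692), and the homeobox factor Hhex had -0.55, both without overlap. Klf2, a factor switched on by blood flow, had -0.57 with overlap. With the length and GC correction Klf2 was at -0.23, Foxc2 at -0.70 and Hhex at -0.57. Of the 11 arterial and Notch genes, 10 were negative. Gja5, which encodes the arterial gap junction protein connexin 40, was at 16.4, 17.1 and 16.9 CPM in controls and 12.5, 10.35 and 11.4 CPM in exposed libraries, a log2 fold change of -0.56 (standard error 0.15, edgeR adjusted p = 0.554). Hey2, a Notch target of arteries, had -0.37, again without overlap. Lyve1 (-0.28) and Pdpn (-0.26) had the most negative values of the 7 venous and lymphatic genes, none of which separated the groups.

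Mural cells, which wrap the endothelium, were read from 10 genes, 6 of them negative and none called. Pdgfrb, the receptor by which they are recruited, was at 144, 161 and 148 CPM in controls and 134, 115 and 128 CPM in exposed libraries (-0.27, standard error 0.12, edgeR adjusted p = 0.692), without overlap. The pericyte gene Rgs5 had -0.31 and Abcc9, a potassium channel subunit of mural cells, 0.43, both with overlap.

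**Figure D4:**
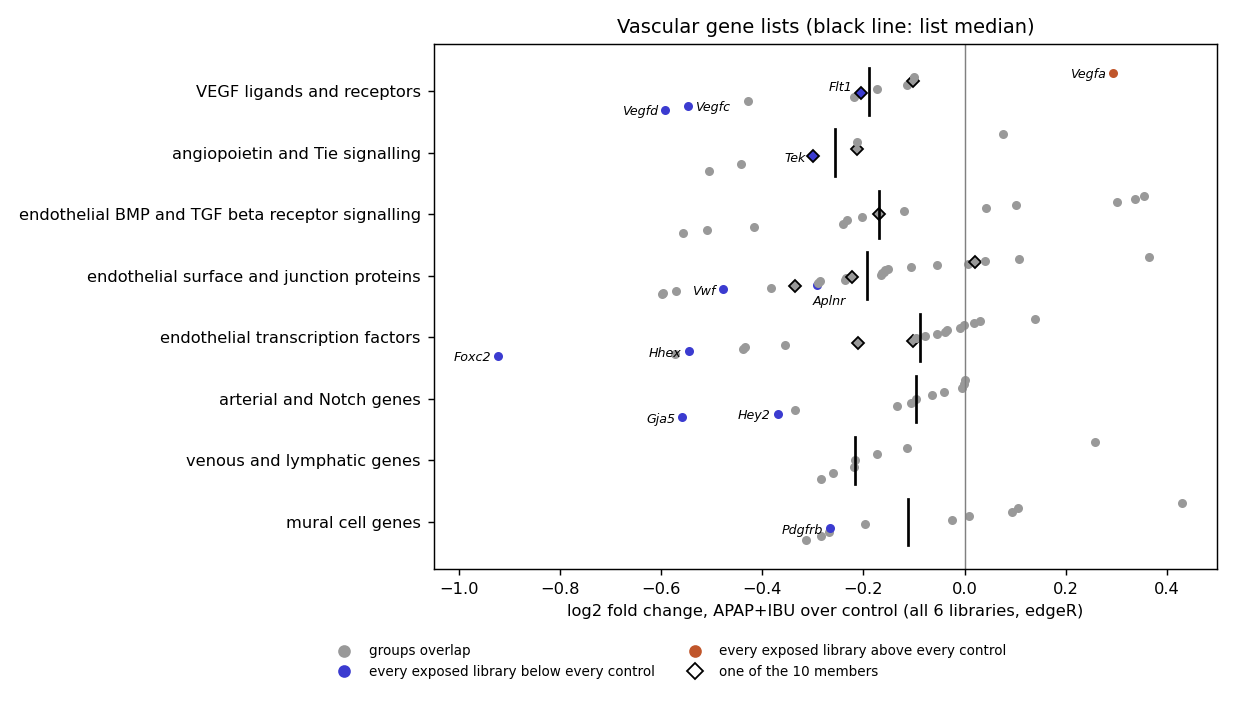
Log2 fold change of APAP+IBU over control (horizontal axis) for the tested genes of 8 vascular and mural lists, with the median of each list as a black line and a gene shown in each list that holds it. All 8 medians lie below 0, Vegfa is the one gene whose exposed libraries were all higher, and the named genes to the left of 0 were lower in every exposed library.

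Other vessel-related RNA in the organ also varied. Blood cells were read from 11 erythroid markers, whose sums were 7062, 17244 and 10965 CPM in controls and 3192, 5440 and 10208 CPM in exposed libraries, with Hba-a1 at -1.46 and Hbb-bh1 at -1.32. Of the macrophage and leukocyte markers, Aif1 (-0.93) and Cx3cr1 (-0.41) did not overlap, and the mannose receptor gene Mrc1 had -0.46. Of 7 markers of liver sinusoidal endothelium, Stab1 was lower in every exposed library (-0.48) and F8 was at 0.50, and the sums of 81.7 to 86.2 CPM in controls and 68.0 to 83.5 CPM in exposed libraries were not highest in replicate 3 of the controls but were so in the exposed libraries. Clec4g had 1 to 4 counts per library. Among genes of the remaining lists with a mean of at least 1 CPM, the largest differences were those of Ahsg (1.05) and Serpina1a (1.0) for hepatocytes, Ppbp (-0.46) and Pf4 (-0.46) for megakaryocytes, Dppa3 (-0.66) and Sycp3 (0.63) for germ cells, Lgr5 (0.49) and Irx3 (-0.25) for pregranulosa cells, Col1a1 (-0.78) and Col3a1 (-0.31) for stroma, and Wnt9b (-0.64) and Pax2 (-0.59) for the mesonephros, none of them called. The part of these cells in the values of the members was not tested.

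By the distance between centred log2 CPM profiles over the 6 libraries, the 5 genes most like the mean profile of the members were Sh3rf1 (0.026), Gramd3 (0.027), Nudcd2 (0.029), Zkscan5 (0.033) and Ywhaq (0.033), among 12454 genes with a mean of at least 5 CPM. The members themselves lay 0.070 to 0.358 from their own mean, against a median of 0.229 over the genes considered. None of the 50 nearest genes, at distances of up to 0.052, was among the 69 vascular genes considered. Every member lay farther than this from the mean profile, so this count cannot tell whether vascular genes shared a profile.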

How the data were processed

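Polyadenylated RNA of 13.5 dpc ovaries was sequenced by the authors from 3 control and 3 APAP+IBU pools of gonads as stranded libraries. The submitters' processing notes name bcl2fastq 2.17.1.14, TopHat2 2.0.14, Bowtie2 2.1.0 and HTSeq 0.6.1. Reads were mapped to mm10 and counted on Ensembl release 86, and the authors deposited raw counts per gene without normalisation. The strand setting of the counting is not given in the sources used here. Groups and replicate numbers came from the sample labels.

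From the 48709 genes, edgeR 4.0.16 (R 4.3.3, limma 3.58.1) kept 20167 by its expression filter. TMM normalisation and the quasi-likelihood test with exposure as the only term were used, with Benjamini-Hochberg adjustment over all tested genes. The p-values judge the difference between groups against the spread between these pools. Genes were called at an adjusted p under 0.05. DESeq2 1.42.0, other scalings, other minimum counts, a block for the replicate number, a loess correction for length and GC content (span 0.3, 20103 genes with both), leaving out each library, and replicates 1 and 2 only were alternatives. Log2 CPM used a prior count of 1. With 3 libraries per group an exact permutation test cannot go below 0.1, so none was used. The edgeR and DESeq2 steps were tested on simulated data with a single dispersion, no GC trend and folds larger than those of the members. This test does not show how well differences of the members' size are found in the real libraries. GENCODE M21 (GRCm38, the assembly also called mm10) gave the symbols of 48349 genes, their positions, lengths and GC content, and is later than the annotation of the counts. RefSeq on GRCm38.p6 gave the promoter sequences.

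Libraries of one group differed by more than sampling noise (chi-square per degree of freedom 17.2 to 143), so none was counted as a duplicate. The members and lists were chosen with earlier results of these data known. Named were all members, a fixed set of their ligands, receptors and partners, the 2 genes of each other list with the largest absolute log2 fold change at a mean of at least 1 CPM, and the 5 genes nearest the members' profile. Genes named for groups that did not overlap, and the markers Foxl2, Cx3cr1 and Clec4g, were chosen after their values were seen.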

Additional observations from a re-analysis of the deposited data

How the results depend on the processing

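No member was called under any alternative that kept all 6 libraries or left out 1 of them. With replicates 1 and 2 only, 2 members were called, and with the length and GC correction on those libraries 3. The median log2 fold change of the members stayed between -0.13 and -0.28, negative under each alternative run. Among all genes, the number called was 120 with every gene of at least 1 count kept, 192 with DESeq2, 5607 with replicates 1 and 2 only and 2715 with the length and GC correction on those libraries. Leaving out 1 library gave 0 to 1064 called genes, and the largest number came without control replicate 3, with 6294 genes at an unadjusted edgeR p under 0.05. The cause was not tested. Other scalings, a minimum of 10 counts in every library and the length and GC correction over all 6 libraries gave 0, with 970 to 1904 genes at an unadjusted edgeR p under 0.05.

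Of 170 values of single members under alternatives, 155 kept direction and call, 5 became calls and 10 changed sign. Cdh5 was -0.0074 with upper quartile scaling, and ranged from -0.034 to 0.073 when 1 library was left out. Sox18 was 0.12 with the length and GC correction and with the replicate block beside it, 0.046 with that correction on replicates 1 and 2, and ranged from -0.48 to 0.11 when 1 library was left out. Kdr was 0.086 with replicates 1 and 2 only and ranged from -0.22 to 0.023 when 1 library was left out. Erg was 0.075 with the correction on replicates 1 and 2. The changes of sign with 1 library left out came without control replicate 1 (Cdh5, Sox18), control replicate 3 (Kdr) and APAP+IBU replicate 1 (Cdh5).

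Whether pools of the same replicate number belonged together is not given in the labels. Over all tested genes, the correlations of same-numbered libraries' deviations from their group means were -0.07, -0.02 and -0.04. Each exposed library correlated better with a control of another number than with its own. The hepatocyte marker sums, in contrast, rose with the replicate number in both groups. With 3 libraries per group, these values cannot decide whether the pools were paired. With the replicate number as a block, edgeR called 2 genes, with the length and GC correction beside it 50, and no member in either. At a depth of 37811968 to 48954631 counts, relative counting error was largest for Sox18, the member with the fewest counts (212 to 436 per library). The width of the intervals rests on the number of pools and on the spread between them. Standard errors ran from 0.11 (Cdh5) to 0.32 (Sox18) over the same pools, and that of Sox18 was 0.15 with the length and GC correction.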
